A study of Rattus norvegicus with 4 samples.

Results

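Cxcl1, Cxcl2, Cxcl3 and Cxcl6 are the neutrophil chemokine genes of the CXCR2 group that were followed here in cultured rat astrocytes. They were chosen by name, with earlier results of these data known, so their counts and ranks among other genes describe them and support nothing further. A gene was taken where a probe of the array had that gene as its single symbol, and each of the 4 genes had 1 such probe. The 4 make up the group out of 18166 genes named on the array. The study cultured primary astrocytes, the star-shaped glia of the brain, from cerebral cortices of newborn rats (strain Sprague-Dawley, age 1 day), and asked how an siRNA against SHP alters their response to interferon-γ (IFN-γ) together with a compound labelled GW. The 4 cultures were an untreated one, one with IFN-γ, one with IFN-γ and GW, all with control siRNA, and one with SHP siRNA, IFN-γ and GW. All 4 were transfected with an siRNA, so none was free of transfection. Treatment lasted 3 h, and the cells had spent 2 days in serum-free medium, a step meant to deplete microglia and meningeal cells. Each condition was 1 culture on 1 array, so no difference below has a test, a standard deviation or a replicate check, and an effect of a treatment and a difference between single cultures or arrays cannot be told apart. The labels do not say how many pups a culture came from.

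CXC chemokines are small secreted proteins, and those that carry the residues glutamate, leucine and arginine ahead of their first cysteine bind the receptor CXCR2. Neutrophils carry that receptor and move toward the source of the ligand, which is how this group draws them out of blood into inflamed tissue. Astrocytes border the vessels of the brain and are a known source of such ligands. Transcription of these genes is typically switched on through NF-κB after IL-1, TNF or Toll-like receptor signals, and their mRNAs are short-lived because of AU-rich elements. In the rat, Cxcl1 is also known as CINC-1 or Gro1, Cxcl2 as Mip-2 and Cxcl3 as CINC-2, while Cxcl5 is an older name of Cxcl6.

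The 4 genes lie in 1 cluster on chromosome 14. In the RefSeq annotation of rat assembly GRCr8 the order runs Mthfd2l, Cxcl2, Cxcl1, Cxcl3, Pf4, Ppbp and Cxcl6, leaving out genes not named on the array. The 250 bases before the annotated start are printed for the 3 members found in the RefSeq promoter table. Cxcl3 had no entry there, so its window was not searched. The windows are chr14:17479322-17479571 for Cxcl1, chr14:17467256-17467505 for Cxcl2 and chr14:17596418-17596667 for Cxcl6, all on the minus strand of GRCr8 and written 5′ to 3′ along the gene. Capitals mark matches, on either strand, to the κB-type letters GGGNNTTTCC, a form of the site that NF-κB binds.
Cxcl1: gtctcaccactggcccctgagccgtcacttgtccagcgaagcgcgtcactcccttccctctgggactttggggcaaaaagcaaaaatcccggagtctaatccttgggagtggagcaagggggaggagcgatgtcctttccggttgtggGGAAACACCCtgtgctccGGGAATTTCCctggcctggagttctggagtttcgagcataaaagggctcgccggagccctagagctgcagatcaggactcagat
Cxcl2: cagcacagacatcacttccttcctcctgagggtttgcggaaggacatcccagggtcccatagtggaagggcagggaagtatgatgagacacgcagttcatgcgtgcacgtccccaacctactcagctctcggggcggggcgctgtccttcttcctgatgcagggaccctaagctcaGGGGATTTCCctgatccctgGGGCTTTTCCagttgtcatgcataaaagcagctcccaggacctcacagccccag
Cxcl6: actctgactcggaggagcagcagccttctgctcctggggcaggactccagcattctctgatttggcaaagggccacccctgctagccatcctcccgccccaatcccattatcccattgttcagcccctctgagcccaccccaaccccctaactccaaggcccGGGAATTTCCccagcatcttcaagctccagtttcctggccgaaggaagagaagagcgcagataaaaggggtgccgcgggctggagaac

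Each of the 3 windows held such letters, 2 matches in Cxcl1, 2 in Cxcl2 and 1 in Cxcl6. Of 33469 promoters of the same length, 1.3% held at least 1 match. The run GGGAATTTCC began 84 bases before the start of Cxcl1 and 88 bases before that of Cxcl6, and Cxcl2 had GGGGATTTCC beginning 74 bases before its start. The other match of Cxcl2, GGGCTTTTCC, began at 54 bases, and the other match of Cxcl1 lay on the opposite strand at 102 bases. TATA-type letters, ATAAAA on either strand, stood 47, 33 and 28 bases before the starts of Cxcl1, Cxcl2 and Cxcl6, and occurred in 18.6% of all promoters. The letters TGANTCA, which AP-1 binds, were not in these 3 windows; they occurred in 6.34% of all promoters. No match of 1 of these motifs overlapped a match of another in the 3 windows. A match describes letters only, and binding was not measured.

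**Figure D1:**
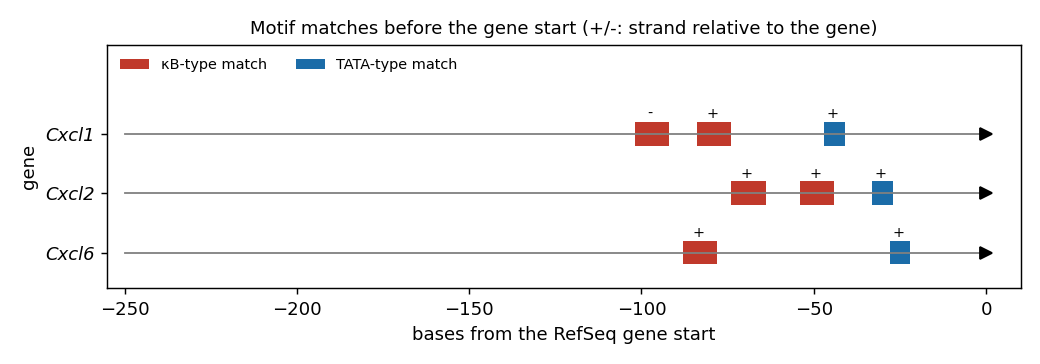
Horizontal axis, bases from the RefSeq gene start; each line is the 250 bases before the start of Cxcl1, Cxcl2 or Cxcl6, red boxes are κB-type matches and blue boxes TATA-type matches, with the strand above each box. All 5 red boxes lie within 102 bases of the start, and 1 blue box lies between them and the start in each gene.

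The arrays were alike in scale, with medians of all deposited values between 5.79 and 5.87. Those values were read as log2 signal, and folds rest on that reading. Among astrocyte markers, Gfap, the astrocyte filament gene, was at 12.03 to 12.11, and Aqp4, the astrocyte water channel gene, at 11.01 to 12.01. Lower astrocyte markers included Slc1a2, at 8.06 to 8.41, and Sox9, at 5.92 to 6.18. Microglial genes were also above the table median of 5.83 in these cultures, with Csf1r at 8.77 to 9.82. C1qa was at 9.74 to 10.48 and Cd68 at 10.19 to 10.82. The neutrophil genes Mpo, Elane, S100a8 and S100a9 lay below that median on all 4 arrays, between 3.16 and 5.11. Of 12 listed neutrophil genes 4 passed the filter: Lcn2, at 11.65 to 12.20, Csf3r, at 6.56 to 7.38, Camp, at 5.62 to 5.95, and Cxcr2, at 5.26 to 6.12. Nr0b2, which encodes the nuclear receptor SHP, was at 3.45 with SHP siRNA and at 5.14 to 5.33 with control siRNA, all below 5.83, a range in which the array background was not known.

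Cxcl1 encodes a major neutrophil attractant of the rat. Its log2 value was 9.13 in the untreated culture, 11.66 with IFN-γ, 11.92 with IFN-γ and GW, and 12.03 with SHP siRNA, IFN-γ and GW. The untreated culture was the low one, and the 3 treated cultures lay within 0.37 of each other.

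Cxcl2 encodes a related attractant that macrophages and glia release. Its log2 value was 7.24 untreated, 11.66 with IFN-γ, 10.83 with IFN-γ and GW, and 11.33 with SHP siRNA, IFN-γ and GW. This gene had the widest range over the arrays of the 4 members, 4.43, and its lowest treated culture was the one with GW and control siRNA.

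Cxcl6 encodes a further ligand of the group. Its log2 value was 9.09 untreated, 10.65 with IFN-γ, 9.46 with IFN-γ and GW, and 9.25 with SHP siRNA, IFN-γ and GW. Here the IFN-γ culture stood alone, and both GW cultures lay within 0.37 of the untreated one.

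Cxcl3 encodes the remaining member. Its log2 value was 3.29 untreated, 3.77 with IFN-γ, 4.01 with IFN-γ and GW, and 3.97 with SHP siRNA, IFN-γ and GW. All 4 values lay below 5.83, so Cxcl3 did not pass the filter used for counts over the whole array, which asked for 1 value of at least 5.83; the other 3 members passed. The range of 0.72 is therefore given as a value only.

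With 1 array per culture the order of neighbouring levels has no spread to be read against. In the values as deposited, the arrays were ordered differently for each gene. For Cxcl1, from high to low, the order was SHP siRNA, GW, IFN-γ and untreated, where GW stands for the culture with control siRNA, IFN-γ and GW. For Cxcl2 the order was IFN-γ, SHP siRNA, GW and untreated. For Cxcl6 it was IFN-γ, GW, SHP siRNA and untreated, and for Cxcl3 it was GW, SHP siRNA, IFN-γ and untreated. After quantile normalization and after cyclic loess, GW and SHP siRNA changed places for Cxcl3, which gave the order of Cxcl1.

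**Figure D2:**
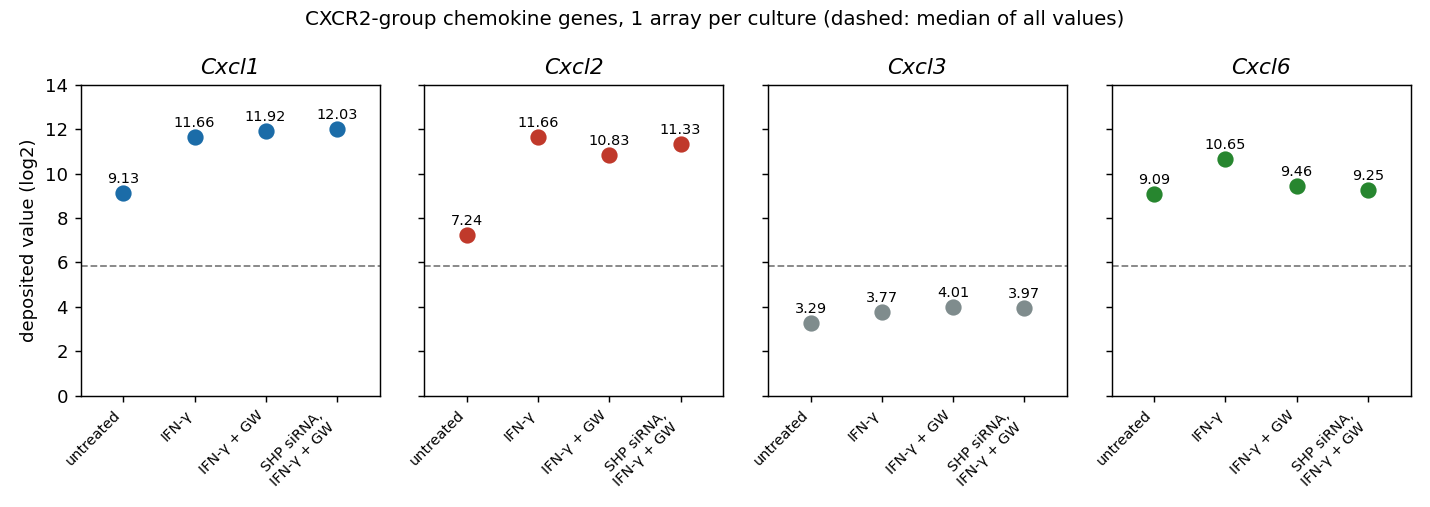
Each panel is 1 gene; points are the deposited log2 values of the 4 arrays, 1 per culture, and the dashed line is the table median of 5.83. Cxcl1 stays between 11.66 and 12.03 on the 3 treated arrays, Cxcl2 goes from 7.24 to between 10.83 and 11.66, Cxcl6 peaks at 10.65 with IFN-γ, and Cxcl3 stays below the dashed line.

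IFN-γ against no treatment asks what the cytokine alone did to these genes at 3 h. Cxcl2 was 21.5-fold higher with IFN-γ (log2 difference 4.43), Cxcl1 5.75-fold higher (2.52) and Cxcl6 2.96-fold higher (1.56). Cxcl3 differed by 0.48, from 1 value below the table median to another. So 3 of the 4 members were past 2-fold in the higher direction and 0 in the lower, against 1.61% and 0.288% of the 11790 genes past the filter. Cxcl2 had the highest difference of these 11790 genes, with Cxcl1 at rank 26 and Cxcl6 at rank 85. The median over the 4 members was 2.04, and over the 11790 genes -0.04. Counts and medians of the 4 members, here and below, include Cxcl3, which did not pass the filter.

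The neighbours inside the cluster did not share these differences. Pf4, a platelet factor gene also made by macrophages, lies between Cxcl3 and Cxcl6 and went from 8.43 untreated to 7.97 with IFN-γ. Ppbp, which encodes the precursor of a further CXCR2 ligand, went from 4.44 to 4.63, both below 5.83. Mthfd2l, a mitochondrial folate enzyme gene beside Cxcl2, went from 6.75 to 6.97. The windows of Pf4 and Mthfd2l were not searched. The 250-base window of Ppbp held 0 κB-type matches. So did those of the CXCR3 ligand genes Cxcl9, Cxcl10 and Cxcl11, whose log2 differences with IFN-γ were 2.53, 1.65 and 2.00. Only the letters GGGNNTTTCC were searched, so NF-κB sites of other spellings were not counted. The windows of Cxcl10 and Cxcl11 each held 1 AP-1-type match.

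Other chemokine genes give the frame for these values. With IFN-γ, 3 of 9 other CXC genes past the filter reached 2-fold upward and 0 downward (median 0.05). The 3 were the CXCR3 ligand genes Cxcl9 (log2 difference 2.53), Cxcl11 (2.00) and Cxcl10 (1.65), whose products attract T cells. The CC group had 13 genes past the filter, of which 5 reached 2-fold upward and 1 downward (median 0.37). Ccl20, which attracts CCR6-bearing cells, had a difference of 4.19, and Ccl4 had 2.73. The monocyte attractant genes Ccl7 and Ccl2 had 1.77 and 1.28, Ccl3 had 1.26, and Ccl22 was the lower gene at -1.04.

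GW was then compared with its absence under IFN-γ, both with control siRNA. The members did not go one way. Cxcl6 was 2.29-fold lower with GW (log2 difference -1.20) and Cxcl2 1.78-fold lower (-0.83), while Cxcl1 was 1.20-fold higher (0.26) and Cxcl3, below the table median, differed by 0.24. Thus 1 of 4 members reached 2-fold downward and 0 upward, against 0.95% of the 11790 genes downward and 0.958% upward. Cxcl6 had the 64th lowest difference and Cxcl2 the 214th lowest, and 1532 of the 11790 genes had a higher difference than Cxcl1. The spread among Cxcl1, Cxcl2 and Cxcl6 was 1.46 on the log2 scale. The median over the 4 members was -0.30, and over the genes past the filter -0.05.

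Among other CXC genes 3 of 9 reached 2-fold downward with GW and 0 upward (median -0.52). These were again Cxcl9 (-2.86), Cxcl11 (-1.65) and Cxcl10 (-1.19), so that Cxcl6 and Cxcl10 had nearly equal differences. Of 13 CC genes 1 reached 2-fold downward, Ccl12 at -1.62, and 0 upward (median -0.36). Ccl20 was at -0.92, near the value of Cxcl2. This comparison and the one of IFN-γ with no treatment share the IFN-γ array, so an error of that array enters both with opposite signs.

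Against the untreated culture, IFN-γ with GW left Cxcl2 12.1-fold higher and Cxcl1 6.90-fold higher. Cxcl6 was 1.29-fold higher there, and Cxcl3 differed by 0.72. That puts 2 of 4 members past 2-fold upward and 0 downward, where 1.65% and 0.84% of the 11790 genes were. In the culture with SHP siRNA, IFN-γ and GW the same difference from untreated was 17.1-fold for Cxcl2, 7.43-fold for Cxcl1 and 1.12-fold for Cxcl6. Again 2 of 4 members reached 2-fold upward and 0 downward, against 1.59% and 0.882% of genes, and Cxcl2 had the highest difference of all 11790.

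Both siRNAs were compared in cultures with IFN-γ and GW, which asks whether lowering SHP alters the GW culture. Cxcl2 was 1.42-fold higher with SHP siRNA (log2 difference 0.50), and Cxcl1 1.08-fold higher (0.11). Cxcl6 was 1.16-fold lower (-0.21), and Cxcl3 differed by -0.04, a sign that turned under 2 other scalings of the arrays. None of the members reached 2-fold (0 higher and 0 lower of 4), and 0.144% of the 11790 genes past the filter reached it upward and 0.263% downward. The middle 95% of genes lay between -0.46 and 0.48, so Cxcl2 stood at its upper edge, with 261 of 11790 genes above it. The median over the 4 members was 0.03, and over the genes past the filter 0.01. In the same comparison Cxcl9 was 4.96-fold higher with SHP siRNA (2.31), Cxcl11 differed by 0.76 and Cxcl10 by 0.57. Cxcl9 was the only 1 of 9 other CXC genes to reach 2-fold, with 5 above 0 and 4 below (median 0.33). Of 13 CC genes 0 reached 2-fold upward and 1 downward, Ccl5 at -1.03 (median -0.03). The comparisons of GW and of SHP siRNA share the array with control siRNA, IFN-γ and GW, so an error of that array enters both with opposite signs, for these genes and for the gene groups below.

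Set directly against IFN-γ alone, the culture with SHP siRNA, IFN-γ and GW had Cxcl6 2.65-fold lower (-1.40), the 11th lowest difference of 11790 genes. Cxcl2 was 1.26-fold lower there (-0.33) and Cxcl1 1.29-fold higher (0.37). This is 1 of 4 members past 2-fold downward and 0 upward, where 0.407% and 0.45% of genes were. The CXCR3 ligand genes Cxcl11 (-0.89), Cxcl10 (-0.61) and Cxcl9 (-0.55) were lower there too.

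**Figure D3:**
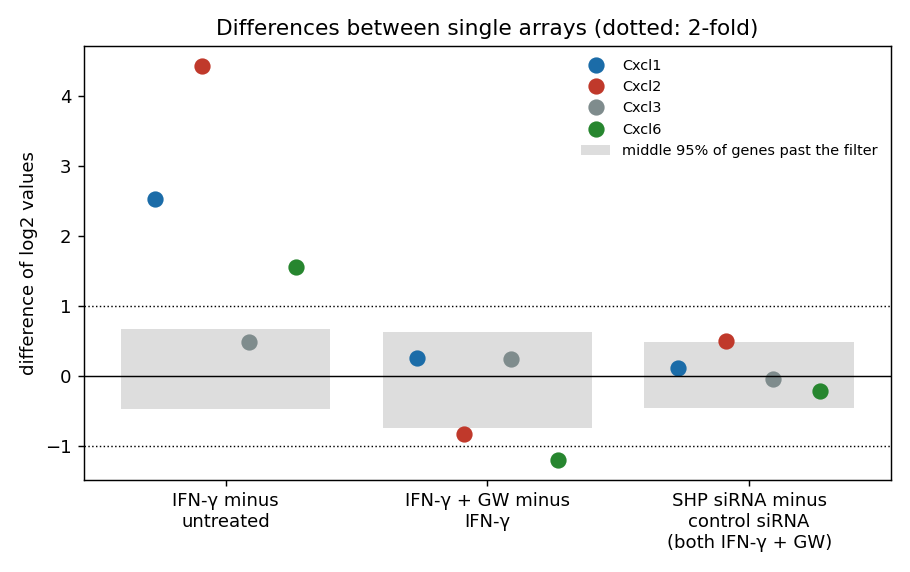
Vertical axis, difference of log2 values between 2 single arrays for the 3 main comparisons; points are the 4 genes, grey boxes the middle 95% of the 11790 genes past the filter, and dotted lines 2-fold. Cxcl1, Cxcl2 and Cxcl6 stand above the grey box with IFN-γ (2.52, 4.43 and 1.56), Cxcl6 and Cxcl2 stand below it with GW (-1.20 and -0.83), and Cxcl2 lies at its upper edge with SHP siRNA (0.50).

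**Figure D4:**
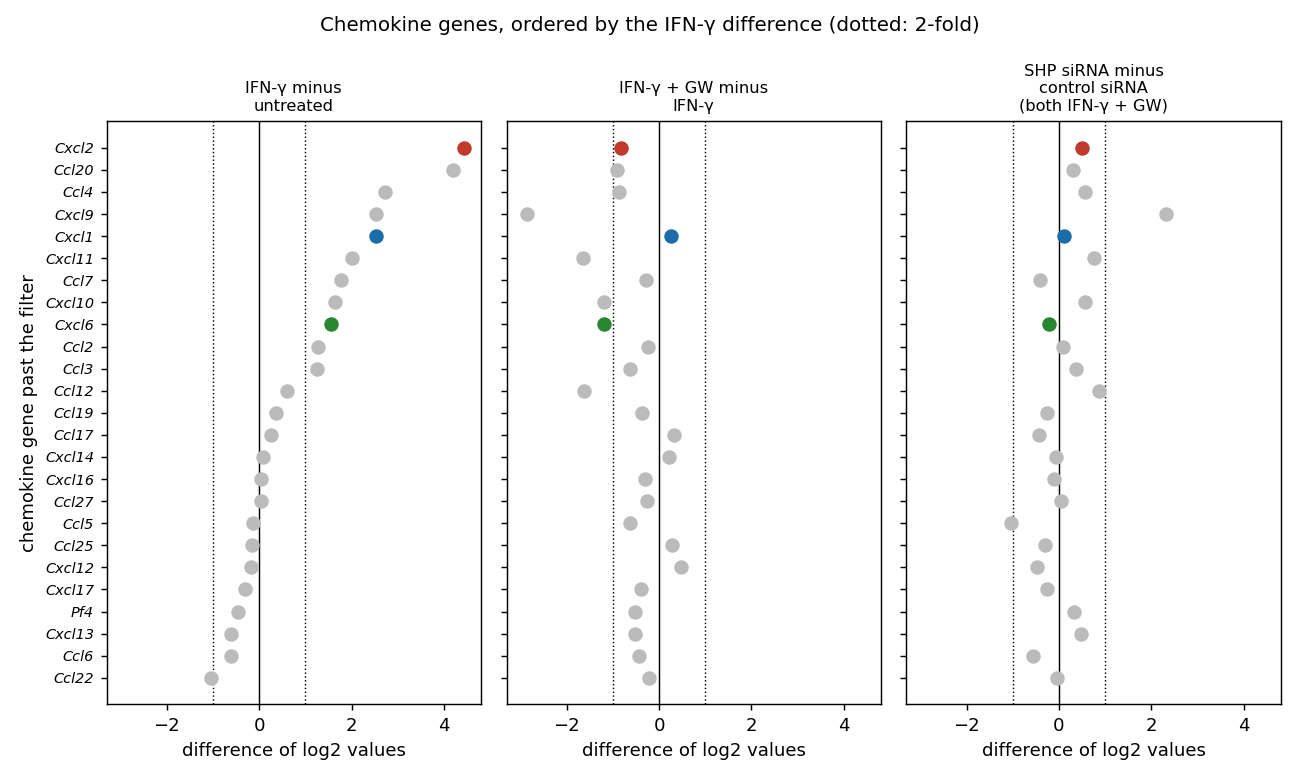
Rows are the chemokine genes past the filter, ordered by the IFN-γ difference; horizontal axes give the difference of log2 values in the 3 main comparisons, coloured points are Cxcl1, Cxcl2 and Cxcl6, grey points the other CXC and CC genes, and dotted lines 2-fold. Cxcl2 is at the top with 4.43, Cxcl1 has 0.26 with GW where Cxcl9 has -2.86, and Cxcl6 has -0.21 with SHP siRNA where Cxcl9 has 2.31.

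The receptor genes of the group had low values. Cxcr2, the receptor of all these ligands, was at 6.12 untreated, 5.51 with IFN-γ, 5.73 with IFN-γ and GW, and 5.26 with SHP siRNA. Only the untreated value reached the table median. Cxcr1 lay between 4.81 and 4.99, below the median on every array.

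Cytokine genes that act upstream of the chemokines, or with them on neutrophils, were higher with IFN-γ as well. Of 10 listed, 7 passed the filter, and all 7 reached 2-fold upward (median 2.40). The filter took the highest of the 4 arrays, so a gene could pass through its treated values alone, as Csf2 did. Without the filter the median of the 10 was 1.86. Il6 differed by 3.73. Il1a and Il1b, the IL-1 genes, differed by 2.83 and 1.92, and Tnf by 3.18. Csf2, which prolongs neutrophil survival, went from 5.48 untreated, below the table median, to 7.88. The neutrophil growth factor gene Csf3 and the IL-17 genes Il17a and Il17f stayed below 5.83 on all arrays.

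With GW 3 of these 7 reached 2-fold downward and 0 upward (median -0.73). They were Il1b (-1.94), Il1a (-1.43) and Csf2 (-1.34), while Tnf was at -0.73, Il6 at 0.49 and Lif at 0.93. With SHP siRNA 1 of 7, Lif at -1.19, reached 2-fold downward and 0 upward (median 0.25). The 7 were split, with 4 above 0, among them Il1b (0.88), Tnf (0.68) and Il1a (0.65). Below 0 were 3, among them Il6 (-0.92). The receptor and adaptor genes for these signals differed less. Of 9, 0 reached 2-fold in any of the 3 main comparisons, with Il1r1, the IL-1 receptor, at 0.67 with IFN-γ and -0.53 with GW.

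NF-κB subunit and feedback genes were next. With IFN-γ 8 of 13 reached 2-fold upward and 0 downward (median 1.30). Bcl3, a nuclear IκB protein gene, differed by 2.27, the inhibitor gene Nfkbie by 2.19, the subunit gene Rel by 2.06, and Nfkbiz, a nuclear IκB gene needed for several secondary NF-κB targets, by 1.95. With GW the 13 had a median of -0.46, and 2 reached 2-fold downward, Tnip3 (-1.95) and Nfkb2 (-1.09). Above 0 stood Nfkbia (0.27), Nfkbiz (0.24) and Rel (0.13), as Cxcl1 did at 0.26. With SHP siRNA all 13 lay above 0, where 48.4% of genes past the filter lay below 0. The median of the 13 was 0.19, and 0 reached 2-fold.

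AP-1 and C/EBP factor genes differed most in the GW comparison. With GW 6 of 8 reached 2-fold upward and 0 downward (median 1.56), led by Fosb (3.80), Fos (2.97), Atf3 (2.19) and Jun (2.02). With IFN-γ 2 of 8 reached 2-fold, both upward, Junb (1.94) and Fosl1 (1.69). With SHP siRNA all 8 lay below 0, where 48.4% of genes past the filter did. The median of the 8 was -0.63, and 1 reached 2-fold, Fosb at -1.39.

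Genes that set the life of AU-rich chemokine mRNAs were mixed. With IFN-γ 3 of 11 reached 2-fold upward and 0 downward: the phosphatase gene Dusp1 (2.21), the mRNase gene Zc3h12a (1.85) and the decay factor gene Zfp36 (1.44). With GW 2 reached 2-fold upward and 0 downward, Dusp1 (1.84) and Zfp36l2 (1.26), and Zfp36 was at 0.97, while Zc3h12a was at -0.70. None reached 2-fold with SHP siRNA (0 of 11).

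Of the genes for neutrophil adhesion and passage, 3 of 7 passed the filter. Icam1, the endothelial and glial ligand of leukocyte integrins, differed by 2.20 with IFN-γ, -0.38 with GW and 0.32 with SHP siRNA. Vcam1 differed by 1.43, -0.92 and 0.56 in the same order, and the matrix protease gene Mmp9 by 0.03, -0.99 and 0.52.

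Genes most like each member were taken by the Euclidean distance between log2 values over the 4 arrays, each gene centred on its own mean. For Cxcl1 they were Pvr, a nectin-like adhesion receptor gene (0.12), the small Maf gene Maff (0.21) and the interferon regulatory factor gene Irf1 (0.29). For Cxcl2 they were Ccl20 (0.38), the atypical chemokine receptor gene Ccrl2 (0.43) and Tnf (0.99). For Cxcl6 they were the cytokine gene Il15 (0.18), Cdc42ep2 (0.19) and Trim47 (0.34). For Cxcl3, whose values lay below the table median and varied little, they were Rest, Lonrf1 and Hivep2, at 0.02, 0.06 and 0.06. The nearest genes were different for each member, and 4 arrays hold too few points for more than this description.

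Il15 and Pvr were picked from these same values as the genes nearest to Cxcl6 and Cxcl1, so their likeness follows from that choice. Il15 stood at 5.39 untreated, 6.83 with IFN-γ, 5.59 with IFN-γ and GW, and 5.60 with SHP siRNA. The IFN-γ culture was again the high one, and the other 3 values lay below the table median. Pvr stood at 8.20, 10.63, 10.92 and 10.93 in the same order, high on all 3 treated arrays as Cxcl1 was.

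Most microglial markers differed by less than 2-fold in each of the 3 main comparisons. All 14 microglial markers found on the array passed the filter; their mean log2 value was 9.35 untreated, 8.92 with IFN-γ, 8.52 with IFN-γ and GW, and 8.68 with SHP siRNA. With IFN-γ 1 of 14 reached 2-fold, downward, where 0.288% of genes past the filter did. Below 0 were 13 of 14, where 59.8% of genes past the filter were. Among the 13 were Cx3cr1 (-1.23), Trem2 (-0.64) and Csf1r (-0.64). With GW 2 of 14 reached 2-fold, downward, Tyrobp at -1.22 and Ptprc at -1.16, where 0.95% of genes did. Below 0 were 12 of 14, where 57.8% of genes were, and Cx3cr1 was at 0.68. Against untreated, the culture with IFN-γ and GW had Tyrobp (-1.55), Csf1r (-1.06) and Aif1 (-1.03) past 2-fold lower, where 0.84% of genes were. With SHP siRNA 0 of 14 reached 2-fold and 2 were below 0, where 48.4% of genes were. Their part in the differences of Cxcl2 and Cxcl6 was not tested. In these bulk cultures fewer cells of a type and less RNA per cell cannot be told apart. The mean of 9 astrocyte markers stayed between 10.01 and 10.20, and that of 12 neutrophil markers between 5.34 and 5.57. Meningeal and fibroblast markers had 6 of 8 past the filter, 0 of them at 2-fold in any of the 3 main comparisons. With SHP siRNA 4 of the 6 lay above 0, led by Pdgfra at 0.72 and Col3a1 at 0.71. The other 2, Ptgds at -0.09 and Pdgfrb at -0.03, lay below 0, where 48.4% of genes were. The median of the 6 was 0.46 with SHP siRNA, beside 0.50 for Cxcl2, and their part in that difference was not tested. With IFN-γ and with GW their medians were 0.03 and -0.09, and the second was 0.00 after cyclic loess. Of 4 endothelial markers on the array 2 passed the filter, with Cdh5 at 7.32 to 7.86.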

How the data were processed

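Gene expression was measured in 4 cultures of primary rat cortical astrocytes, 1 array each. Per the labels' protocols, biotin-labelled sense cDNA was made from Trizol-extracted total RNA. The values the authors deposited, 1 for each probe on each array, run from 1.14 to 13.41 and were read as log2 signal. The log base, background correction, normalization and detection calls were not given in the sources used here. Of 29489 probes, 18511 had 1 gene symbol, 575 several and 10403 none. Symbols were updated by Entrez identifier to RefSeq (18394 found). The probe with the highest mean stood for a gene. Genes with a highest value of at least 5.83, the median of the table, were counted (11790 of 18166).

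Differences are between single arrays, and a gene was counted at 2-fold. Having only 1 array per condition limits the precision. The code for the differencing was checked on simulated arrays with seeded changes. Their noise was set by hand and not taken from these arrays, so the check says nothing about the measured differences. The members and gene lists were chosen with earlier results of these data known. The genes named are the 4 members, up to 6 genes per list by size of difference in a main comparison, genes that complete a count of 5 or fewer and a few further listed genes (chosen after their values were seen), defining markers, the 3 genes most like each member, Nr0b2 and the neighbours on the chromosome. Promoters came from the RefSeq table (GRCr8), where 3 of 4 members matched. The alternatives were quantile normalization and cyclic loess (limma 3.58.1, R 4.3.3), median centring, the mean of a gene's probes, other filters and thresholds of 1.5-fold and 3-fold. Other steps used Python 3.11.15.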

Additional observations from a re-analysis of the deposited data

How the results depend on the processing

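The signs of the 12 differences of members in the 3 main comparisons held under quantile normalization, median centring, cyclic loess and the mean of probes, apart from Cxcl3 with SHP siRNA, which was 0.02 after quantile normalization and 0.02 after cyclic loess; the cause was not tested. No member crossed the 2-fold line under these 4 settings. The difference of Cxcl1 with GW ran from 0.26 to 0.37, that of Cxcl2 from -0.83 to -0.73 and that of Cxcl6 from -1.20 to -1.10. Other thresholds change counts by construction. At 1.5-fold 2 members were lower with GW, and at 3-fold 0. Over genes past the filter, the counts at 1.5-fold and 3-fold were 356 and 80 higher and 187 and 2 lower with IFN-γ, 332 and 50 higher and 586 and 26 lower with GW, and 168 and 1 higher and 142 and 4 lower with SHP siRNA. Without the filter, SHP siRNA gave 27 higher and 48 lower, since more genes were counted. Of 249 list medians under alternatives, 6 changed sign and 1 crossed 2-fold. Profiles taken as differences from the untreated array shared all 3 nearest genes for Cxcl1, Cxcl3 and Cxcl6, and 2 of 3 for Cxcl2. The pseudocount planned for linear values was not run, since the values were read as log2. No paired analysis was possible because each group held 1 array. Each gene rests on 1 probe, and cross-hybridisation among these related genes was not tested.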
